A study of Homo sapiens with 6 samples.

Results

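The transcripts described here are those of 10 AP-1 and immediate early genes: the AP-1 subunits JUN, JUNB, JUND, FOS, FOSL1, FOSL2 and ATF3, together with EGR1, MYC and IER3. They were chosen by name, as every probe annotated to 1 of these genes, which gave 13 probes for 10 of the 18852 genes with a named probe on the array. Total RNA came from IGROV-1 cells, an established human ovarian carcinoma line, and was hybridised to 6 Illumina bead arrays, each with 1 sample. In the CpG-ODN group, 3 samples were treated for 24 h with 10 µM of ODN1826, a synthetic phosphorothioate DNA whose unmethylated CpG motifs are ligands for Toll-like receptor 9. Whether it engaged that receptor in these human cells was not analysed here. The other 3 samples were saline controls, and how long they were kept was not stated in the labels. All samples share the 1 cell line, so neither group stands for ovarian tumours in general. The labels do not say whether a group's 3 samples were grown as separate cultures, so every p-value reflects the scatter among these samples alone, part of which may be technical. The design asks how CpG-ODN alters the transcripts of these tumour cells.

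AP-1 is a family of dimers, each made of basic leucine zipper proteins: JUN proteins pair with each other, with FOS proteins or with ATF proteins, and bind short palindromic DNA sites. Immediate early genes are those that a stimulus switches on within minutes, without new protein synthesis, through factors already present in the cell such as serum response factor and CREB. Their transcripts are short-lived, and in many carcinoma lines some of them are also kept on by steady growth factor and MAP kinase signalling. The design holds a single time, so changes that came and went before it were not measured.

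The control regions of these genes carry known sites for such factors, and stretches of 5 of them are printed here because they show what the members share and where they differ. All were read from the RefSeq promoter table (build GRCh38.p14), which held 7 of the 10 genes with 8 start sites, and lie before the annotated start of transcription. They are written 5′ to 3′ along the gene's own strand. Capitals mark the core TGACG, its palindrome TGACGTCA, the variant TGACATCA, the TATA box TATAAA or the CArG box to which serum response factor binds, on either strand.
JUN: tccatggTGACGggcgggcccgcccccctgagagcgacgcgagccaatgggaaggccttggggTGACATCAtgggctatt
JUND: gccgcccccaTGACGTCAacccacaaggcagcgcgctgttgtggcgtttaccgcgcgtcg
FOS: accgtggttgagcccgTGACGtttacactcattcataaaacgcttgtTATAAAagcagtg
ATF3: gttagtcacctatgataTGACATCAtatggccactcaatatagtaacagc
EGR1: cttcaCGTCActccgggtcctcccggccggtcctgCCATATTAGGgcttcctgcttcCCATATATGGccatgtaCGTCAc
The JUN stretch is chr1:58784098-58784177 on the minus strand and the JUND stretch chr19:18281773-18281832 on the minus strand. On the plus strand lie the FOS stretch at chr14:75278748-75278807, the ATF3 stretch at chr1:212565267-212565316 and the EGR1 stretch at chr5:138465339-138465418. JUN and ATF3 both hold the variant TGACATCA, the site through which JUN protein is known to act on its own gene, 67 to 60 bases before the start of JUN and 123 to 116 bases before the upstream start of ATF3. Within the 250 bases before the start, EGR1 alone of the 7 genes in the table held a CArG box, and it had 2, at 105 to 96 and 83 to 74 bases before its start. Bases further upstream were not searched, so a gene without a match here may still hold the site. FOS had TGACG at 64 to 60 bases, the known cyclic AMP response element of that gene, and TATAAA at 33 to 28 bases.

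These letters were searched on both strands of the 250 bases before each start. TGACG, the core of the cyclic AMP response element, occurred before 6 of the 7 members in the table. By start sites this was 6 of 8, against 21.2% of all 35116 promoters. In JUND it overlaps TGACGTCA, which contains it on both strands. In what follows members are counted as genes, whereas the percentages count promoters. The full TGACGTCA was found before JUND alone among the members and in 1.65% of all promoters, TGACATCA before 2 members and in 2.37%, and the CArG box before 1 member and in 1.16%. TATAAA was found before FOS, JUNB and the downstream start of ATF3, and in 10.7% of all promoters. TGANTCA, with any base at N, covers the AP-1 sites TGAGTCA and TGACTCA but is wider than these. It was found before 0 of the 7 members and in 6.57% of all promoters. A match is a run of letters and not a measured binding site.

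The arrays are described by values that touch every result below. Between 17142 and 18790 of the 48803 probes were detected on an array, where detected means a deposited detection p under 0.05. The CpG-ODN arrays differed among themselves more than the saline arrays did: pairs correlated across probes at 0.964 to 0.983 for CpG-ODN and at 0.989 to 0.991 for saline. CpG-ODN 1 (−42.0) and CpG-ODN 2 (38.3) were at opposite ends of the main axis of variation, a principal component that carried 45.1% of the variance and on which saline arrays spanned −12.4 to 8.79. Members whose difference changed sign without 1 of these arrays are also given without it. The cells had markers of an epithelial carcinoma line, with EPCAM, KRT8, KRT19 and PAX8 among 7 of 10 such genes detected on 6 arrays. Of the same 10, MUC16 was detected on 5 arrays, WT1 on 2 and CLDN4 on 0. Markers of other cell types were detected on 6 arrays for 2 of 8 leukocyte genes (CD14 and CD68), 1 of 7 fibroblast genes (THY1) and 2 of 5 endothelial genes (PECAM1 and VWF), and MS4A1 and LYZ were detected on 5. PTPRC, CD3E and CSF1R of leukocytes, COL1A2, COL3A1 and LUM of fibroblasts, and CDH5 and TEK of endothelium were detected on 0 arrays. Among the tested markers 0 were called in limma, with medians of −0.02 over 8 epithelial, −0.13 over 4 leukocyte, −0.27 over 2 fibroblast and −0.03 over 2 endothelial genes. Without CpG-ODN 1 the epithelial, leukocyte and fibroblast medians were 0.10, 0.03 and −0.14, and without CpG-ODN 2 the leukocyte, fibroblast and endothelial ones were −0.37, −0.49 and −0.11. The mucin gene MUC16 lay at 0.21 ± 0.28 log2 units (SE, CpG-ODN minus saline), KRT7 at 0.08 ± 0.23 and KRT19 at −0.02 ± 0.18. CD68 and CD14, which macrophages express, lay at 0.27 ± 0.17 and −0.32 ± 0.18, THY1 and DCN of fibroblasts at −0.18 ± 0.17 and −0.35 ± 0.32, and PECAM1 and VWF of endothelium at 0.36 ± 0.25 and −0.41 ± 0.19. A second CD68 probe gave −0.14. DCN was dim, with means of 5.57 in CpG-ODN and 5.92 in saline, and was detected on 1 CpG-ODN and 2 saline arrays. The fibroblast medians rest in part on it. What part these markers have in the members' values was not tested. In such bulk samples a change in the share of cells that use a gene and a change in RNA per cell cannot be told apart.

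All 10 genes were transcribed at a detectable level in both groups. Of their 13 probes, 11 were detected on 6 of 6 arrays, where 30.2% of all probes were, and the other 2 were ATF3 probes detected on 0 arrays. Levels below are log2 values after background correction and quantile normalization, and each difference is CpG-ODN minus saline on that scale, with the standard error (SE) of the limma fit. Brightness also depends on the probe, so the level of 1 gene is not set against that of another.

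No member passed the test. With limma 0 of 11 tested member probes reached an adjusted p under 0.05, and the background over all 17950 tested probes was likewise 0%. The smallest adjusted p over all probes was 1.00. At an unadjusted p under 0.05 there were 0 of 11 member probes, against 3.58% of all probes. In a fit with the replicate number as a block the member count was again 0 of 11, against 4.97% of all probes. CpG-ODN and saline arrays overlapped for each of the 11, against 9.35% of all probes in which they did not. The mean was higher in CpG-ODN for 9 member probes and lower for 2, and 48.1% of all probes were higher. The median difference was 0.04 log2 units over the member probes and −0.01 over all tested probes.

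**Figure D1:**
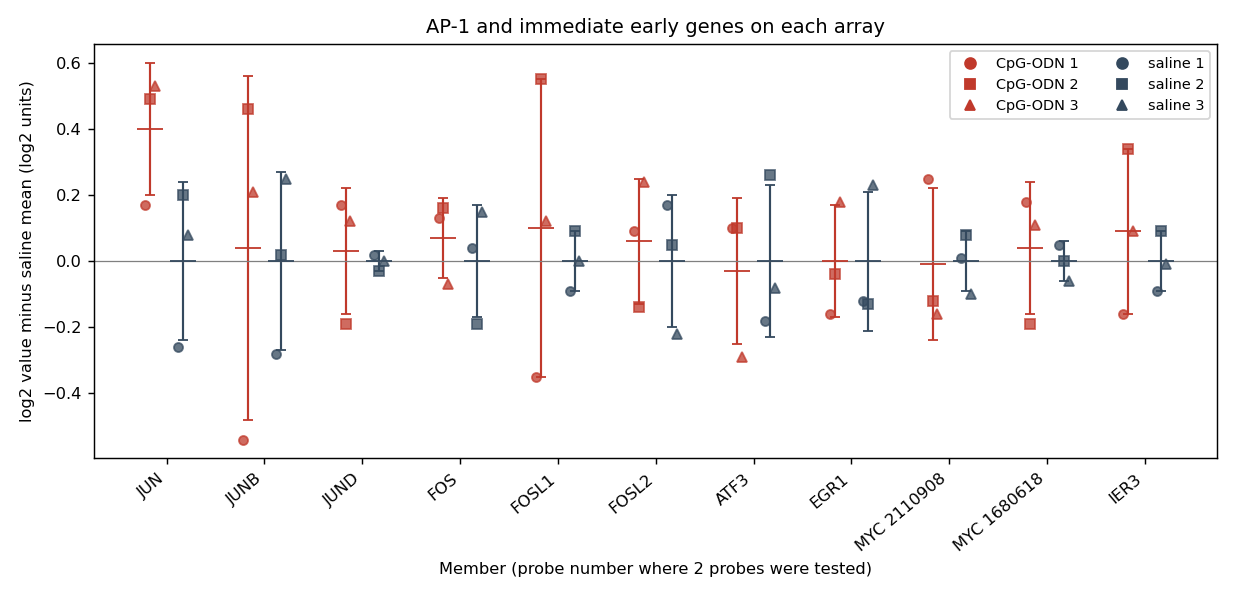
Each point is 1 array: its log2 value minus the mean of the 3 saline arrays, in log2 units, for each tested member probe, with CpG-ODN in red left of saline in blue; bars give the mean and SD of 3 arrays. The groups overlap for every probe, and JUNB and FOSL1 have CpG-ODN 1 below and CpG-ODN 2 above all 3 saline arrays.

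Among the JUN proteins, which can form AP-1 dimers with one another as well as with FOS proteins, JUN itself had the largest difference of all members. JUN, the founding subunit and a substrate of the JNK kinases, had log2 levels of 8.87, 9.19 and 9.23 on CpG-ODN arrays 1 to 3, against 8.44, 8.90 and 8.78 on saline arrays 1 to 3. CpG-ODN 2 and 3 lay above all saline arrays, while CpG-ODN 1 lay just under saline 2, so the groups overlapped by that array. The means were 9.10 ± 0.20 in CpG-ODN and 8.70 ± 0.24 in saline (SD, n = 3 each). The difference was 0.39 ± 0.19 log2 units (SE), or 1.31-fold, with a 95% interval from −0.04 to 0.82 (limma unadjusted p = 0.0693, adjusted p = 1.00), which ranked 946 among the p-values of all tested probes. Before normalization the intensities of JUN were 633.4, 547.4 and 649.2 in CpG-ODN and 458.9, 585.5 and 543.9 in saline, where saline 2 again lay above 1 CpG-ODN array, here CpG-ODN 2. Between samples of the same number CpG-ODN was higher in 3 of 3 cases, by 0.43, 0.29 and 0.45, as it was for 12.1% of all tested probes; the numbers are not stated to mark pairs.

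The sign of the JUN difference held in each of the 19 alternatives run, but the gene was called in 0 of them. It ranged from 0.26 without saline 1 to 0.52 without CpG-ODN 1 and CpG-ODN 2 together. An unadjusted p under 0.05 came up in 5 alternatives, the lowest being 0.00632 with array weights (limma adjusted p = 0.147), and the highest p was 0.262, without saline 1. The fit with array weights leans on CpG-ODN 3, whose weight was 4.71, while CpG-ODN 1 and 2 had weights of 0.257 and 0.349. In the deposited normalized values the difference was 0.33, as it was without background correction. Both settings count among the 5 but hold nearly the same values (limma unadjusted p = 0.0435 in each).

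**Figure D2:**
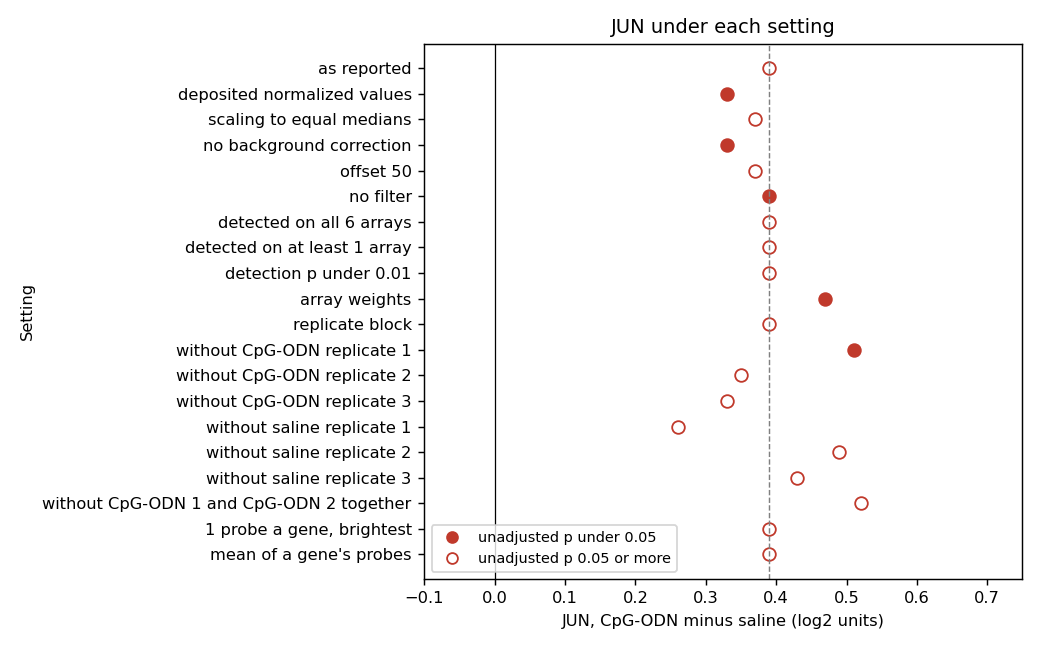
The JUN difference, CpG-ODN minus saline in log2 units, under the reported setting (top, dashed line at 0.39) and each alternative; filled points have an unadjusted p under 0.05 in limma. All points lie right of 0, between 0.26 and 0.52, and 5 are filled.

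JUNB, a JUN protein that often restrains JUN, had the widest range of the members over the 6 arrays after background correction and quantile normalization, though not in the deposited normalized values or the intensities. It had levels of 6.46, 7.46 and 7.21 in CpG-ODN against 6.72, 7.02 and 7.25 in saline. CpG-ODN 1 was the lowest and CpG-ODN 2 the highest of the 6 arrays, so the CpG-ODN group enclosed the saline group. The difference was 0.04 ± 0.27 (SE), with an interval from −0.56 to 0.65. Without CpG-ODN 1 it was 0.34 and without CpG-ODN 2 it was −0.16, so the sign rested on single arrays. Its detection p reached 0.00791, the highest among the 11 detected member probes.

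JUND, which in contrast to its relatives is known for steady transcription in resting and growing cells, had levels of 13.90, 13.54 and 13.85 in CpG-ODN and 13.75, 13.70 and 13.73 in saline. Its saline arrays lay within 0.05 of each other, and the CpG-ODN arrays lay on both sides of them. The difference was 0.03 ± 0.17 (SE), with an interval from −0.34 to 0.41. It was −0.03 without CpG-ODN 1 and 0.14 without CpG-ODN 2.

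FOS proteins cannot pair with each other and need a JUN partner. The 3 FOS genes among the members showed differences of at most 0.11 log2 units. FOS, the classic serum-induced member, had levels of 7.82, 7.85 and 7.62 in CpG-ODN and 7.73, 7.50 and 7.84 in saline. The lowest array was saline 2, and the 2 highest were CpG-ODN 2 and saline 3. The difference was 0.07 ± 0.17 (SE), with an interval from −0.31 to 0.46, and its sign turned when CpG-ODN 3 stood alone against saline (−0.07).

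FOSL1, which encodes FRA1, a FOS protein known for its high levels in invasive carcinoma cells, had levels of 7.57, 8.47 and 8.04 in CpG-ODN against 7.83, 8.01 and 7.92 in saline. As for JUNB, CpG-ODN 1 was the lowest and CpG-ODN 2 the highest of all arrays. The difference was 0.11 ± 0.23 (SE), with an interval from −0.41 to 0.63, and it was 0.34 without CpG-ODN 1 and −0.11 without CpG-ODN 2. FOSL2, which encodes FRA2, had levels of 7.34, 7.11 and 7.49 in CpG-ODN and 7.42, 7.30 and 7.03 in saline. Its arrays were mixed in order, and the difference was 0.06 ± 0.18 (SE), with an interval from −0.35 to 0.48.

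ATF3, a stress-induced factor of the ATF family that pairs with JUN proteins, was read by 3 probes that did not agree in detection. Probe ILMN_2374865 had levels of 7.79, 7.79 and 7.40 in CpG-ODN and 7.51, 7.95 and 7.61 in saline. The lowest array was CpG-ODN 3 and the highest saline 2, and the difference was −0.03 ± 0.19 (SE), with an interval from −0.46 to 0.41. Without CpG-ODN 1 and CpG-ODN 2 it was −0.29. Probe ILMN_1791346, annotated to the same transcript, and ILMN_1661109, annotated to another, were not above background on any array, with detection p from 0.212 to 0.870 and from 0.232 to 0.949. Their intensities stayed between 91.3 and 115.8 and between 85.3 and 114.8, so no fold change is given for them.

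EGR1, a zinc finger factor whose gene is a textbook target of serum response factor and whose CArG boxes are printed above, had nearly the same mean in the groups. Its levels were 8.73, 8.85 and 9.07 in CpG-ODN against 8.77, 8.76 and 9.12 in saline. In each group array 3 was the highest, and the other arrays lay close together. The difference was 0.00 ± 0.18 (SE), with an interval from −0.41 to 0.41.

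MYC, the growth-promoting helix-loop-helix factor, was read by 2 detected probes. ILMN_2110908 had levels of 12.07, 11.70 and 11.66 in CpG-ODN and 11.83, 11.90 and 11.72 in saline. ILMN_1680618 had levels of 11.87, 11.50 and 11.80 in CpG-ODN and 11.74, 11.69 and 11.63 in saline. On both, CpG-ODN 1 was the highest of the 6 arrays and CpG-ODN 2 was below all 3 saline arrays, while CpG-ODN 3 was low on the first and high on the second. The differences were 0.00 ± 0.18 and 0.04 ± 0.17 (SE), with intervals from −0.40 to 0.39 and from −0.35 to 0.42. They were −0.14 and −0.04 without CpG-ODN 1, and 0.05 and 0.15 without CpG-ODN 2. Before normalization the first probe read 5098.5, 2905.6 and 3093.2 in CpG-ODN and 3876.0, 3936.9 and 3491.8 in saline.

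IER3, an early response gene known as a regulator of cell survival and the 1 member that encodes no DNA-binding factor, had levels of 9.22, 9.72 and 9.47 in CpG-ODN against 9.29, 9.47 and 9.37 in saline. CpG-ODN 1 was again the lowest and CpG-ODN 2 the highest. The difference was 0.09 ± 0.18 (SE), with an interval from −0.31 to 0.50, and −0.03 without CpG-ODN 2. Its intensities before normalization spanned only 746.0 to 821.8.

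The intervals give the range of differences at 24 h that the scatter among these samples allows for each probe on this scale. Like the p-values, they may leave out variation between cultures. For 8 of the 11 tested member probes the 95% interval lay inside 1.5-fold either way, as it did for 43% of all tested probes, and for 11 of 11 it lay inside 2-fold, against 93.6% of all. The 3 probes that reached past 1.5-fold were JUN (up to 1.77-fold higher), JUNB (up to 1.57-fold higher) and FOSL1 (up to 1.54-fold higher). On the lower side, the smallest fold that an interval allowed was 0.678, for JUNB. For JUN the interval runs almost wholly above 0, and for the other 10 probes it reached at least 0.31 log2 units to either side of 0.

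**Figure D3:**
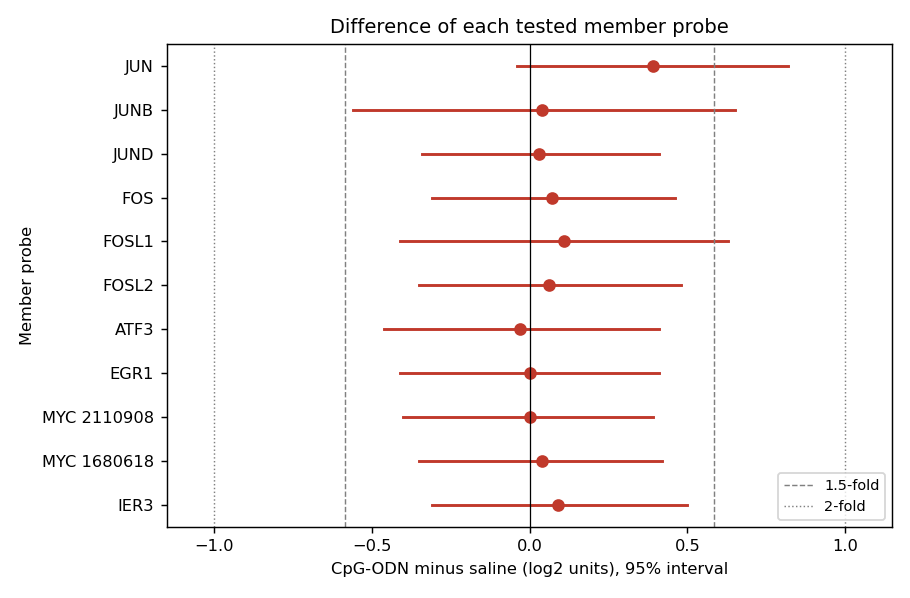
CpG-ODN minus saline in log2 units for each tested member probe, with the 95% interval of the limma fit over 3 arrays a group; dashed lines mark 1.5-fold and dotted lines 2-fold. Every interval holds 0, those of JUN, JUNB and FOSL1 cross the 1.5-fold line on the right, and none crosses 2-fold.

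The members did not vary over the arrays as 1 block. Over the 6 arrays, FOSL1 and IER3 had a Pearson correlation of 0.98, JUNB and FOSL1 of 0.89 and JUND and the MYC probe ILMN_1680618 of 0.97, whereas JUNB and the MYC probe ILMN_2110908 had one of −0.88. The 2 probes of MYC had a correlation of 0.58 with each other. These values describe 6 points that share arrays and normalization. Genes with high correlations had gaps of the same sign between CpG-ODN 1 and CpG-ODN 2: the first minus the second was −1.0 for JUNB, −0.90 for FOSL1 and −0.50 for IER3, against 0.35 for JUND and 0.38 and 0.37 for the MYC probes. Gaps of more than 0.5 log2 units between these arrays were found in 41.1% of all tested probes, and the standard deviation over all of them was 0.61. Before normalization IER3 read 793.6 on CpG-ODN 1 and 758.8 on CpG-ODN 2, a gap of the opposite sign. JUNB, FOSL1, JUND and the MYC probes kept the sign of their gaps in those intensities. Whether the gap between these arrays comes from the treatment, the cultures, the arrays or the processing was not tested.

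Likeness over the arrays was followed for the 3 members with the largest SD over the 6 arrays. For JUNB (SD 0.37) the genes with the highest correlation among 11030 were PXMP2 (0.998), ZFAND3 (0.997) and ITM2C (0.996). For FOSL1 (SD 0.30) they were TMEM191B (0.998), MPV17L2 (0.997) and PCBP3 (0.995), and for JUN (SD 0.29) they were WNT16 (0.987), GINS4 (0.984) and CEP72 (0.983). These are the highest of many correlations over 6 points that share arrays, and they are descriptions only.

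How far a member varied also depended on the stage of processing. FOSL1 spanned 0.27 log2 units over the 6 arrays in the non-normalized intensities, 0.66 in the deposited normalized values and 0.90 after background correction and quantile normalization. JUNB spanned 0.48, 0.58 and 1.00 in the same order, and IER3 0.14, 0.44 and 0.50. The MYC probes went the other way, with 0.81 and 0.84 before normalization and 0.41 and 0.37 after background correction and normalization. JUN spanned 0.50, 0.66 and 0.79.

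**Figure D4:**
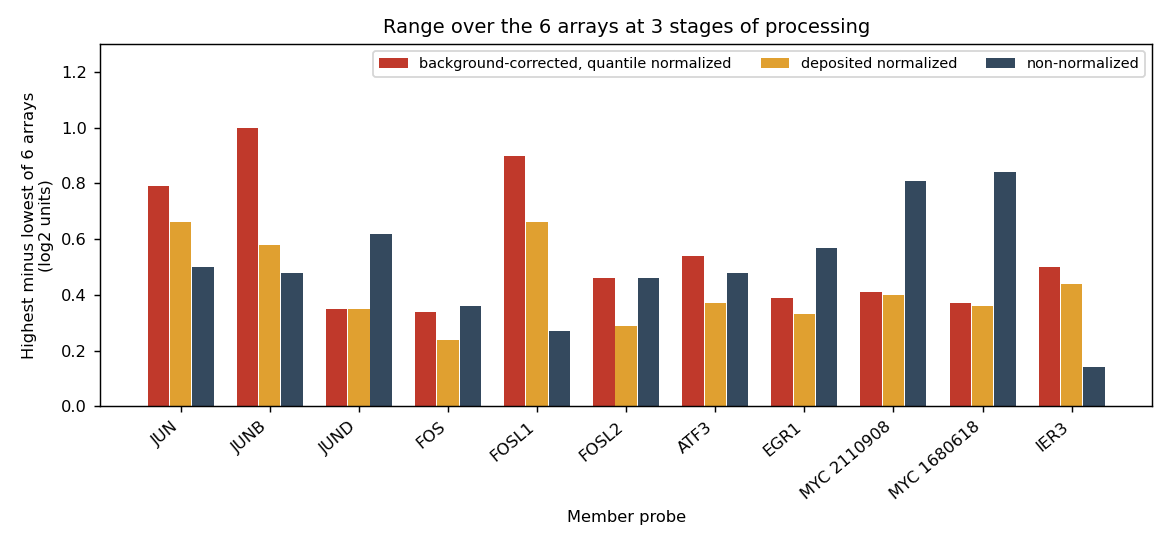
Bars give the highest minus the lowest of the 6 arrays in log2 units for each tested member probe, after background correction and quantile normalization (red), in the deposited normalized values (yellow) and in the non-normalized intensities (blue). FOSL1, JUNB and IER3 spread out with processing, whereas JUND, EGR1 and MYC drew together.

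The rest of the pathway gave 0 called genes as well, with limma over all probes, as in 0% of the 11040 genes represented by their brightest probe. At an unadjusted p under 0.05 there were 2.93% of all genes, and 4 of the 117 other pathway genes tested across 8 lists, or 3.42%: ATF2, KLF4, RPS6KA3 and SPHK1. The median over all genes was −0.005. Among the tested genes named below, CpG-ODN and saline arrays did not overlap for KLF4, RPS6KA3, SPHK1, FHL2, ITCH, GSK3B, MXD1 and FBL. Over all tested probes the groups did not overlap in 9.35%.

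Among other AP-1 and related leucine zipper factors 17 of 24 were tested, with 8 higher and 9 lower means and a median of −0.01. ATF2, a JNK substrate that pairs with JUN, had levels of 7.12, 6.77 and 7.55 in CpG-ODN against 7.76, 7.72 and 7.54 in saline. CpG-ODN 3 and saline 3 nearly coincided, and the difference was −0.53 ± 0.22 (SE, unadjusted p = 0.0348 in limma over 6 arrays, adjusted p = 1.00). CREB3, an endoplasmic reticulum-bound factor, lay at 0.50 ± 0.23, and the stress response factor ATF4 at 0.00 ± 0.17, with −0.45 and 0.09 on its other probes. FOSB, the FOS protein that is not among the 10 genes, was detected on 6 arrays and lay at 0.19, and BATF, BATF2 and MAF were detected on 0 arrays.

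Of 39 other immediate early and early response genes 32 were tested, 16 with higher and 16 with lower means, and the median was 0.00. KLF4, a zinc finger factor, had levels of 10.54, 9.82 and 9.81 in CpG-ODN against 9.75, 9.59 and 8.98 in saline. The groups did not overlap, as in 9.35% of all tested probes, and the margin was under 0.1 log2 units. The difference was 0.62 ± 0.27 (SE, unadjusted p = 0.0452 in limma over 6 arrays, adjusted p = 1.00). ID2, an inhibitor of helix-loop-helix factors, lay at 0.39 ± 0.19, and a second probe of it gave 0.12. Its relative ID3 lay at 0.16 ± 0.28. NR4A1, EGR4 and SNAI1 were detected on 0 arrays.

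The factors and kinases that act on these genes lay on both sides of 0. Serum response and ternary complex factors had a median of 0.10 over 8 of 9 genes, 7 of them higher. This median was 0.03 without CpG-ODN 1, 0.06 without saline 2, 0.01 with array weights and −0.04 without CpG-ODN 1 and CpG-ODN 2 together. The list held the EGR1 corepressor NAB2 at 0.22 ± 0.18 (SE), ELK4 at 0.12 ± 0.21 and the serum response factor cofactor FHL2 at −0.06 ± 0.15. The other tested probes of ELK4 gave −0.27, −0.01 and 0.21. Kinases had a median of −0.12 over 9 of 13 genes, and of −0.02, −0.05 and −0.06 without CpG-ODN 3, saline 1 and CpG-ODN 2, with RPS6KA3, which encodes RSK2, at −0.60 ± 0.22. It had levels of 7.18, 6.35 and 6.87 in CpG-ODN against 7.41, 7.44 and 7.35 in saline (unadjusted p = 0.0229 in limma over 6 arrays, adjusted p = 1.00). The groups did not overlap for RPS6KA3, as in 9.35% of all tested probes. Its other probes gave −0.52 and −0.54, on the same side. RPS6KA5, which encodes MSK1, lay at 0.37 ± 0.30 and MAPK3, which encodes ERK1, at 0.03 ± 0.15. Genes for the turnover of JUN, FOS and MYC proteins had a median of −0.14 over 7 of 12, which was 0.02 without saline 1 and −0.23 without CpG-ODN 1. Among them were the MYC-phosphorylating kinase gene GSK3B at −0.32 ± 0.17, the JUN ubiquitin ligase gene ITCH at 0.22 ± 0.16 and SKP2 at −0.01 ± 0.21, with −0.33 and −0.46 on the other probes of SKP2.

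Targets of the factors were spread likewise. AP-1 target genes had a median of −0.04 over 12 of 24, 4 of them higher, and it was 0.12 without CpG-ODN 1 and −0.08 without CpG-ODN 2. SPHK1, which encodes sphingosine kinase, had levels of 6.17, 6.43 and 6.50 in CpG-ODN against 5.89, 5.75 and 6.10 in saline. Here the groups did not overlap, as in 9.35% of all tested probes. The difference was 0.46 ± 0.18 (SE, unadjusted p = 0.0292 in limma over 6 arrays, adjusted p = 1.00). The collagen-binding integrin gene ITGA2 lay at −0.37 ± 0.22 and the intermediate filament gene VIM at 0.08 ± 0.22. Of the metalloproteinase genes, often used as readouts of AP-1, MMP3 was detected on 6 arrays and lay at −0.04 ± 0.21, MMP14 was detected on 2 arrays and MMP1 on 1, and MMP9, MMP10 and MMP13 on 0. PLAU, IL11 and AXL were also detected on 0 arrays. Here and in every list, detection on 0 arrays describes the probes, as the ATF3 probes show, and not that a gene was silent.

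Partners and antagonists of MYC had a median of −0.15 over 11 of 15 genes. It was 0.01 without CpG-ODN 3, −0.05 without CpG-ODN 2, −0.06 without saline 2 and −0.07 in the deposited normalized values. MAX, the obligate partner of MYC, gave 0.48 ± 0.24 (SE) by its brightest probe, whereas its other probes gave −0.09 and −0.83, so its probes went opposite ways. MXD1, a repressor that competes for MAX, lay at −0.33 ± 0.17 and its relative MXD4 at 0.05 ± 0.16. Targets of MYC had a median of −0.04 over 21 of 24 genes, in a narrow band from −0.13 to 0.27. For 17 of these 21 the 95% interval lay inside 1.5-fold, as it did for 48.3% of all genes. NPM1, also in this list, was detected on 0 arrays by its 1 probe and was not tested. The nucleolar methyltransferase gene FBL lay at 0.18 ± 0.16, the translation factor gene EIF4E at 0.27 ± 0.29 and LDHA at −0.07 ± 0.21.

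**Figure D5:**
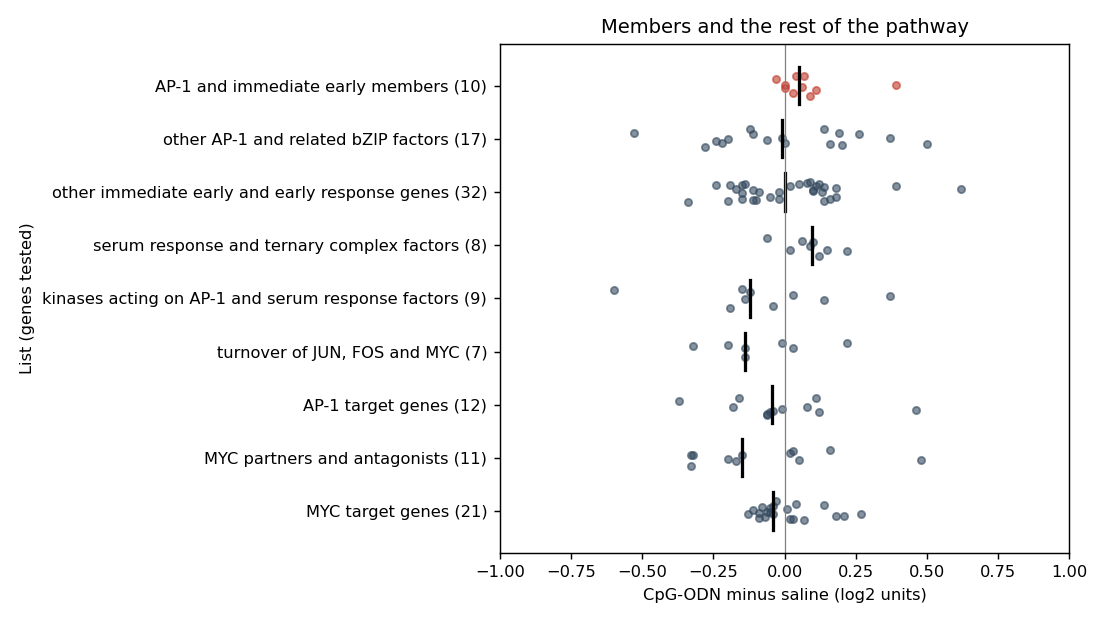
Each point is 1 gene by its brightest tested probe, CpG-ODN minus saline in log2 units, for the 10 members (red) and 8 other lists of the pathway (blue), with the number of genes tested in brackets and a black bar at the median. The medians lie between −0.15 and 0.10, and JUN at 0.39 stands to the right of the other members.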

How the data were processed

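Non-normalized intensities on a linear scale were used as deposited, per the file headers, with a deposited detection p-value per probe and array in steps of 0.00132. BeadStudio was used per the submitters' processing notes, with no version stated. The method behind a second deposited table, of normalized intensities, was likewise not stated, and plain quantile normalization of the first table differed from it by at most 0.0218 log2 units.

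Intensities were background-corrected and quantile normalized with neqc of limma 3.58.1 (R 4.3.3, offset 16, control levels estimated through those p-values). Probes detected at p under 0.05 on at least 3 of 6 arrays were kept, 17950 of 48803. The offset draws differences of dim probes towards 0. Of all probes 28098 had 1 gene symbol, 13 several and 20692 none in the platform annotation, and 28059 matched RefSeq by gene number.

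All kept probes entered 1 limma model (lmFit, eBayes) of CpG-ODN against saline, with group as the sole term and Benjamini-Hochberg adjustment over all of them, at a threshold of 0.05. A gene in a list is represented by its brightest tested probe. The members and lists were chosen with earlier results of these data known. Named were every probe of the members, in each other list the gene of the brightest probe and the 2 with the smallest unadjusted p, and the genes most like 3 members; genes detected on 0 arrays, marker genes and FOSB were named after their values were seen. The alternatives were other normalizations, offsets, filters, array weights, a replicate block, left-out arrays and other summaries per gene. Precision is limited by having 3 arrays a group.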

Additional observations from a re-analysis of the deposited data

How the results depend on the processing

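In limma 0 probes, 0 member probes and 0 genes of the other lists were called in each of the 19 alternatives. Among them was the replicate block (0 called probes, JUN at an unadjusted p of 0.0501). With array weights the smallest limma adjusted p over all probes was 0.0544, just above the threshold, and without CpG-ODN 1 it was 0.494. Scaling to equal medians gave 334 probes with an unadjusted p under 0.05 and array weights gave 2903, the lowest and highest counts, against 643 as reported. Medians of the other lists shifted as well. Without CpG-ODN 1 that of AP-1 target genes went from −0.04 to 0.12 and that of turnover genes from −0.14 to −0.23. Of 207 values of single member probes 180 kept their sign and 0 were called. The median over the member probes, 0.04, was 0.11 with array weights, 0.12 without CpG-ODN 1 and CpG-ODN 2 together, and ran from 0.03 to 0.09 with 1 array left out. With scaling to equal medians JUNB turned to −0.04, EGR1 to −0.03 and the MYC probe ILMN_2110908 to 0.05. FOS turned to −0.01 with array weights and to −0.07 without CpG-ODN 1 and CpG-ODN 2 together, and MYC to 0.02 with the mean of its probes. With 1 array left out JUNB ranged from −0.16 to 0.34, FOSL1 from −0.11 to 0.34, IER3 from −0.03 to 0.22, JUND from −0.03 to 0.14, FOS from −0.02 to 0.15, FOSL2 from −0.05 to 0.17, ATF3 from −0.12 to 0.10, EGR1 from −0.09 to 0.12, and the MYC probes from −0.14 to 0.07 (ILMN_2110908) and from −0.04 to 0.15 (ILMN_1680618). For each of these turns, the cause was not tested. The fit without CpG-ODN 1 and 2 sets 1 CpG-ODN array against 3 saline arrays and takes its spread from saline alone.

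Deviations from the group means correlated at 0.341, 0.0499 and 0.126 between same-numbered samples over all tested probes. CpG-ODN 1 and CpG-ODN 3 went best with the saline sample of the same number, while CpG-ODN 2 went best with saline 3 (0.243). The numbers were not taken as pairs, since the labels do not state that they mark pairs. With the replicate block 893 probes had an unadjusted p under 0.05. The planned chip block could not be fitted, as the labels name no chip.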
